A study of Mus musculus with 20 samples.

Results

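The voltage-gated calcium channel subunits described here are 5 genes, Cacna1c, Cacna2d1, Cacnb2, Cacna1g and Cacna1h, taken by symbol from the 24059 genes counted in each of 20 RNA-seq libraries of the mouse heart. Each library comes from the left ventricular free wall of male C57BL/6 mice of about 9 to 13 weeks, after perfusion of the heart with Tyrode solution. The 4 groups, of 5 libraries each, were CardioGRKO at ZT12, GRflox at ZT12, CardioGRKO at ZT0 and GRflox at ZT0, where lights turned on at ZT0 and off at ZT12. CardioGRKO mice (GRfl/fl alphaMHCCre/+) have both floxed copies of Nr3c1, which encodes the glucocorticoid receptor, together with Cre expressed from the alpha myosin heavy chain promoter, which drives deletion in cardiomyocytes. GRflox mice (GRfl/fl) are littermates that carry the floxed alleles alone, so loss of the receptor and presence of Cre cannot be told apart. According to its title, the study asked how this receptor in cardiomyocytes bears on transcriptional rhythms. All 5 genes passed the filter on low counts.

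Voltage-gated calcium channels open on depolarization and let calcium into the cell. In working ventricular muscle the L-type channel supplies the calcium that triggers release from the sarcoplasmic reticulum, and it is built from the pore-forming alpha1C subunit (Cacna1c), a cytoplasmic beta subunit (Cacnb2) and an extracellular alpha2delta subunit (Cacna2d1). T-type channels open at more negative voltages and inactivate quickly. Their pores alpha1G (Cacna1g) and alpha1H (Cacna1h) are prominent in the embryonic heart and in pacemaker and conduction tissue, and are low in the adult ventricle.

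The coding sequences show how the members of both types differ at the pore. An alpha1 protein has 4 repeats, and each contributes 1 acidic residue to the ring that selects calcium. Repeats I and II carry a glutamate codon at that place in Cacna1c, Cacna1g and Cacna1h alike. In repeats III and IV the codon is for glutamate in Cacna1c and for aspartate in both T-type genes. The stretches around these codons are shown because this difference separates the L-type gene from the T-type genes compared below. They were read from GENCODE M21 transcripts (GRCm38, also called mm10), all 3 genes lie on the minus strand, and capitals mark the codon of the selecting residue.
Cacna1c repeat III: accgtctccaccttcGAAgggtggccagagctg
Cacna1g repeat III: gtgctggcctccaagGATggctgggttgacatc
Cacna1h repeat III: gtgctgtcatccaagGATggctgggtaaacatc
Cacna1c repeat IV: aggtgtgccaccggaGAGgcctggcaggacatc
Cacna1g repeat IV: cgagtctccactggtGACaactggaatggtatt
Cacna1h repeat IV: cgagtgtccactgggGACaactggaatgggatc
The Cacna1g stretches lie within 1 exon each, at chr11:94426456-94426488 and chr11:94416412-94416444, and so do those of Cacna1h, at chr17:25383493-25383525 and chr17:25377768-25377800. Those of Cacna1c span an exon junction each, between chr6:118654452-118656141 and chr6:118614047-118624368.

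A further difference concerns the beta subunit. High-voltage-activated alpha1 subunits bind it through a conserved stretch of the loop between repeats I and II. The residue pattern QQxExxLxGYxxWIxxxE, known for this stretch, was found once in the translated Cacna1c, and also once in Cacna1d, Cacna1a and Cacna1s. It was not found in Cacna1g, Cacna1h or Cacna1i, which says only that these letters are absent from those coding sequences. The coding stretch of Cacna1c lies within 1 exon at chr6:118734906-118734959 and is shown as the place where the product of Cacnb2 attaches.
Cacna1c beta-binding stretch: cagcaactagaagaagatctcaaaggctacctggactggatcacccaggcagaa

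The libraries held 5854462 to 37648421 counts, with a median of 23223656, and 14007 genes were tested. Replicate 1 of CardioGRKO at ZT0 had the fewest counts. Its file is also marked with a number unlike that of the other 19, and what the number stands for was not stated. Nr3c1, the targeted gene, averaged 51.0 ± 3.50 CPM in CardioGRKO and 107 ± 7.98 CPM in GRflox at ZT12, and 55.2 ± 3.51 CPM in CardioGRKO and 115 ± 6.11 CPM in GRflox at ZT0, with no overlap of libraries at either time. CPM values are counts scaled to library size with TMM factors, given as mean ± SD (n = 5 libraries). Log2 fold changes are given ± standard error, with the Benjamini-Hochberg adjusted p of the edgeR quasi-likelihood test, and a gene is called where that p is under 0.05. The labels tie replicate numbers to no named animals, so the p-values measure the spread between libraries. Of the 8 genes listed as markers of ventricular cardiomyocytes, 7 passed the filter, Myl2 and Irx4 among them. Hand1, with at most 4 counts in any library, did not, and several of the list, such as Myh6 and Tnnt2, are expressed in atrial cardiomyocytes as well. In such bulk tissue, fewer cells of a type and less RNA per cell cannot be told apart.

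Levels of different genes were compared per length, as CPM per kb of merged exons. In GRflox at ZT12, Cacna1c had 26.2 ± 2.0, Cacna2d1 24.8 ± 2.5, Cacnb2 9.57 ± 0.663, Cacna1g 5.02 ± 0.507 and Cacna1h 2.13 ± 0.194 CPM per kb. In CardioGRKO at ZT12 the order was kept, with 21.3 ± 1.17 for Cacna1c, 18.2 ± 2.08 for Cacna2d1, 9.68 ± 0.583 for Cacnb2, 6.12 ± 0.826 for Cacna1g and 5.05 ± 0.604 CPM per kb for Cacna1h. The neighbours Cacna1g and Cacna1h overlapped in CardioGRKO libraries at both times, and in GRflox libraries Cacna1h lay below Cacna1g without overlap. Cacna1c and Cacna2d1 overlapped in the GRflox libraries of both times and in the CardioGRKO libraries of ZT0, and at ZT12 the highest CardioGRKO library of Cacna2d1 and the lowest of Cacna1c were both at 19.9 CPM per kb. The gene annotation that the authors counted on was not stated in the labels. With the length of the transcript that has the longest coding sequence in place of merged exons, the order of the 5 group means was the same in GRflox at ZT12, and Cacna1c had 83.3 ± 6.37 CPM per kb. For Cacna1c that transcript has 6669 bases, 6666 of them coding, against 21191 bases of merged exons.

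In the CardioGRKO ventricle both T-type pore genes were higher, and the L-type pore gene Cacna1c and the alpha2delta gene Cacna2d1 were lower, than in GRflox at the same time. Cacna1h changed most, 2.39-fold higher at ZT12 and 2.05-fold higher at ZT0. Cacna1g was 1.22-fold higher at ZT12 and 1.30-fold higher at ZT0, Cacna1c was 1.23-fold and 1.21-fold lower, and Cacna2d1 was 1.37-fold and 1.26-fold lower at the same times. Cacnb2 was not called at either time. At each time, then, 2 of the 5 genes were called higher and 2 lower, and the median log2 fold change of the 5 was 0.02 at ZT12 and -0.12 at ZT0, beside 0.00 and -0.01 over all genes tested. Over all genes tested, 10.4% were called higher and 10.7% lower at ZT12, 21.1% in either direction. At ZT0 these shares were 7.36%, 7.35% and 14.7%. The plot of CPM by library shows every value behind these differences.

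**Figure D1:**
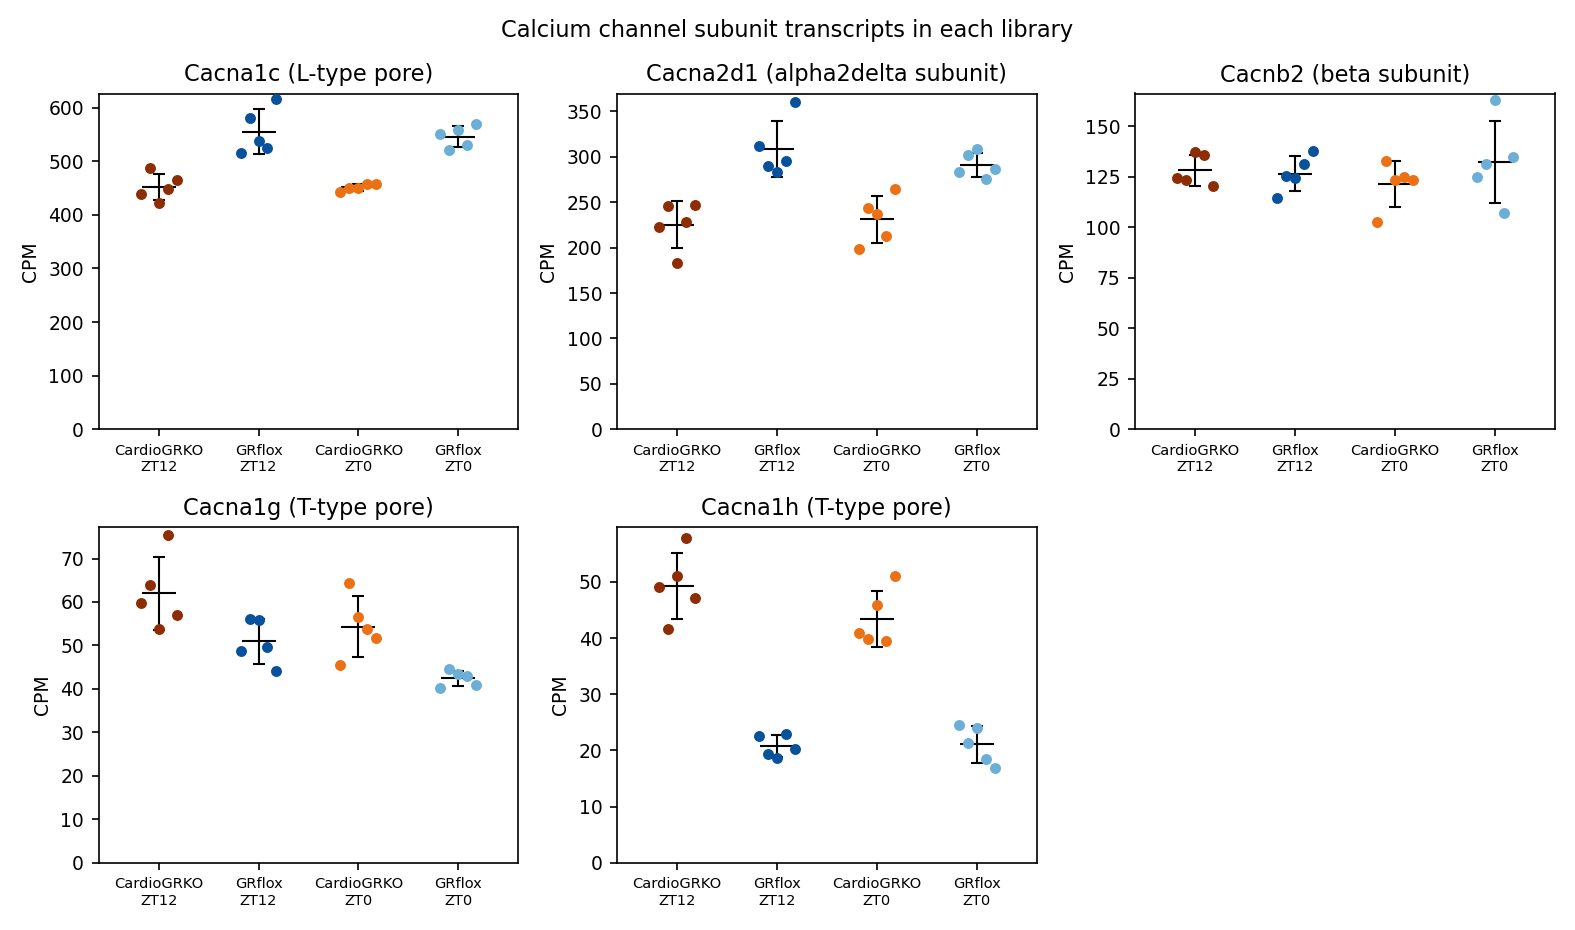
CPM (counts scaled to library size with TMM factors) of the 5 subunit genes in each of the 20 libraries, with 1 panel per gene and a linear axis that starts at 0; points are libraries, and black bars show the mean ± SD of 5. CardioGRKO and GRflox points are separated for Cacna1c, Cacna2d1 and Cacna1h at both times, separated for Cacna1g at ZT0 and overlapping for it at ZT12, and they overlap for Cacnb2.

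Cacna1c (Entrez gene 12288, chr6:118587240-119196418, minus strand, mm10, 56 merged exon blocks) encodes the pore of the cardiac L-type channel. At ZT12 it had 439.8, 487, 422, 448 and 465 CPM in the CardioGRKO libraries, against 516, 581, 538, 525 and 617 CPM in the GRflox libraries. At ZT0 it had 442, 449.7, 450.2, 458 and 457 CPM in the CardioGRKO libraries, against 551, 521, 559, 530.5 and 569 CPM in the GRflox libraries. Each CardioGRKO library was below each GRflox library of its time. The means were 452.2 ± 24.8 CPM in CardioGRKO and 555.3 ± 42.5 CPM in GRflox at ZT12, and 451.2 ± 6.40 CPM in CardioGRKO and 546.0 ± 20.1 CPM in GRflox at ZT0. The log2 fold change was -0.30 ± 0.05 at ZT12 (edgeR adjusted p = 6.15e-05) and -0.27 ± 0.05 at ZT0 (edgeR adjusted p = 0.00025). These are small differences that exceed the spread between libraries. The annotated gene Dcp1b overlaps Cacna1c on the opposite strand, and whether counting used strand was not stated in the labels.

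Cacna2d1 (Entrez gene 12293, chr5:15934691-16374511, plus strand, mm10) encodes the alpha2delta subunit, which raises the number of channels at the cell surface. At ZT12 it had 223, 246, 183, 229 and 247 CPM in the CardioGRKO libraries, against 312, 290.3, 284, 296 and 361 CPM in the GRflox libraries. At ZT0 it had 198, 243, 238, 213 and 264 CPM in the CardioGRKO libraries, against 283, 302, 308, 275 and 286 CPM in the GRflox libraries. Again no CardioGRKO library reached a GRflox library of its time. The log2 fold change was -0.45 ± 0.08 at ZT12 (edgeR adjusted p = 0.000175) and -0.33 ± 0.08 at ZT0 (edgeR adjusted p = 0.00604). Relative to Cacna1c in the same library, Cacna2d1 counts averaged 49.8% ± 3.68 in CardioGRKO and 55.6% ± 4.24 in GRflox at ZT12, and 51.2% ± 5.41 in CardioGRKO and 53.3% ± 3.12 in GRflox at ZT0. The libraries of both genotypes overlapped in this ratio at both times.

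Cacnb2 (Entrez gene 12296, chr2:14603088-14987908, plus strand, mm10) encodes the main cardiac beta subunit, which brings alpha1C to the membrane and sets its gating. At ZT12 it had 124, 123, 137, 136 and 120.2 CPM in the CardioGRKO libraries, against 114, 125, 124, 131 and 138 CPM in the GRflox libraries. At ZT0 it had 102, 133, 123, 125 and 124 CPM in the CardioGRKO libraries, against 125, 131, 163, 107 and 135 CPM in the GRflox libraries. The ranges overlapped at both times, and replicate 3 of GRflox at ZT0 was the highest of all 20. The log2 fold change was 0.02 ± 0.08 at ZT12 (edgeR adjusted p = 0.908) and -0.12 ± 0.08 at ZT0 (edgeR adjusted p = 0.367). Intervals of 1.96 standard errors reached from -0.14 to 0.18 at ZT12 and from -0.28 to 0.04 at ZT0, so the ZT0 interval includes a fall as large as that of Cacna1c. Relative to Cacna1c in the same library, Cacnb2 counts averaged 28.4% ± 3.01 in CardioGRKO and 22.8% ± 1.34 in GRflox at ZT12, without overlap. At ZT0 they averaged 26.9% ± 2.28 in CardioGRKO and 24.2% ± 3.34 in GRflox, with overlap.

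Cacna1g (Entrez gene 12291, chr11:94408391-94474198, minus strand, mm10) encodes the T-type pore alpha1G. At ZT12 it had 59.8, 63.8, 53.9, 75.5 and 57.0 CPM in the CardioGRKO libraries, against 48.7, 56.2, 55.9, 49.7 and 44.1 CPM in the GRflox libraries. At ZT0 it had 45.4, 64.3, 56.6, 53.8 and 51.7 CPM in the CardioGRKO libraries, against 40.2, 44.6, 43.5, 42.9 and 40.9 CPM in the GRflox libraries. The groups were apart at ZT0, where the lowest CardioGRKO library is the shallowest of the series, and overlapped at ZT12 through 1 CardioGRKO library at 53.9 CPM. The log2 fold change was 0.28 ± 0.09 at ZT12 (edgeR adjusted p = 0.0202) and 0.37 ± 0.09 at ZT0 (edgeR adjusted p = 0.00457). The ZT12 call was lost without replicate 4 of CardioGRKO at ZT12, with 0.20 (edgeR adjusted p = 0.0818), and without replicate 5 of GRflox at ZT12, with 0.24 (edgeR adjusted p = 0.0634).

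Cacna1h (Entrez gene 58226, chr17:25374285-25433783, minus strand, mm10) encodes the T-type pore alpha1H. At ZT12 it had 49.0, 41.6, 51.1, 57.7 and 47.1 CPM in the CardioGRKO libraries, against 22.6, 19.4, 18.7, 22.9 and 20.3 CPM in the GRflox libraries. At ZT0 it had 40.8, 39.8, 45.9, 39.5 and 51.0 CPM in the CardioGRKO libraries, against 24.5, 21.4, 24.0, 18.5 and 16.9 CPM in the GRflox libraries. The lowest CardioGRKO library of the series, at 39.5 CPM, was well above the highest GRflox library, at 24.5 CPM. Means were 49.3 ± 5.90 CPM in CardioGRKO and 20.8 ± 1.90 CPM in GRflox at ZT12, and 43.4 ± 4.99 CPM in CardioGRKO and 21.1 ± 3.32 CPM in GRflox at ZT0. The log2 fold change was 1.26 ± 0.10 at ZT12 (edgeR adjusted p = 2.88e-09) and 1.04 ± 0.10 at ZT0 (edgeR adjusted p = 1.34e-07). In size it is close to the fall of Nr3c1 itself, -1.08 ± 0.06 at ZT12 and -1.06 ± 0.06 at ZT0. That fall is of bulk tissue, which includes cells other than cardiomyocytes, and a link between Cacna1h and Nr3c1 was not tested. The annotated gene Tpsg1 overlaps one end of Cacna1h on the opposite strand.

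Libraries of CardioGRKO and GRflox did not overlap for 3 of the 5 genes at ZT12 (Cacna1c, Cacna2d1 and Cacna1h) and for 4 of the 5 at ZT0 (these and Cacna1g). Over all genes tested, 13.8% did not overlap at ZT12 and 11.9% at ZT0.

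The balance of T-type and L-type pore transcripts was compared within each library, which needs no scaling between libraries. Cacna1h counts averaged 10.97% ± 1.71 of those of Cacna1c in CardioGRKO and 3.77% ± 0.554 in GRflox at ZT12. At ZT0 they averaged 9.62% ± 1.06 in CardioGRKO and 3.86% ± 0.616 in GRflox. The ratio was thus 2.90-fold higher at ZT12 and 2.5-fold higher at ZT0, and the lowest CardioGRKO library, at 8.54%, was above the highest GRflox library, at 4.45%. Cacna1g counts averaged 13.7% ± 1.82 of those of Cacna1c in CardioGRKO and 9.22% ± 1.22 in GRflox at ZT12, and 12.0% ± 1.51 in CardioGRKO and 7.78% ± 0.567 in GRflox at ZT0. That ratio separated the genotypes without overlap at ZT0, and at ZT12 as well, where Cacna1g alone overlapped and Cacna1c did not. Where both genes of a ratio separate the genotypes in opposite directions, the ratio must separate them too. This holds for Cacna1h to Cacna1c at both times and for Cacna1g to Cacna1c at ZT0.

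The T-type genes also shifted against each other. Cacna1h counts averaged 80.2% ± 10.8 of those of Cacna1g in CardioGRKO and 41.3% ± 6.70 in GRflox at ZT12, and 81.0% ± 14.3 in CardioGRKO and 49.7% ± 8.28 in GRflox at ZT0. No CardioGRKO library overlapped a GRflox library of its time, although at ZT0 the gap was narrow, with the lowest CardioGRKO library at 61.9% and the highest GRflox library at 61.0%. No test was made of these ratios, since their members were chosen with results known.

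**Figure D2:**
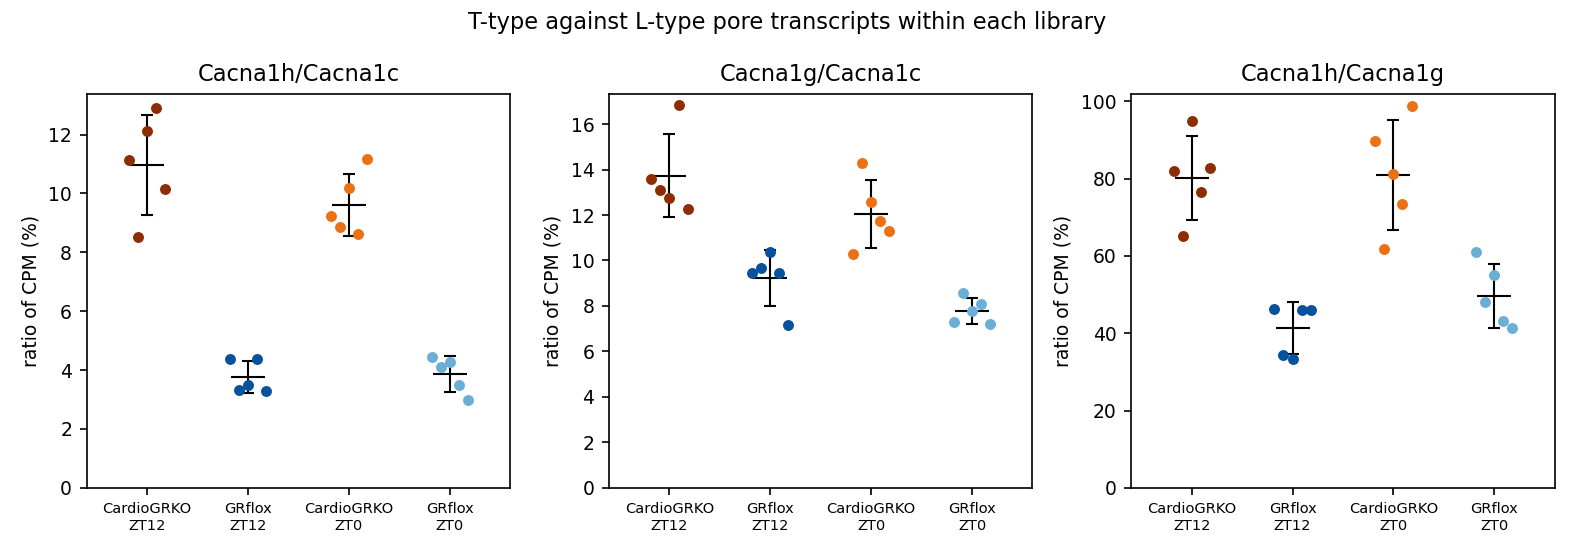
Ratios of CPM within each library, in percent: Cacna1h to Cacna1c, Cacna1g to Cacna1c and Cacna1h to Cacna1g; points are libraries and black bars the mean ± SD of 5, on linear axes that start at 0. In each panel the CardioGRKO libraries lie above the GRflox libraries of the same time, with the widest gap for Cacna1h to Cacna1c and the narrowest for Cacna1h to Cacna1g at ZT0.

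Expressed as shares of all 10 alpha1 genes per kb of merged exons, Cacna1c made up 59.3% ± 2.08 in CardioGRKO and 70.9% ± 1.66 in GRflox at ZT12, and 61.1% ± 1.33 in CardioGRKO and 71.4% ± 1.61 in GRflox at ZT0. The T-type genes together made up 31.1% ± 2.90 in CardioGRKO and 19.5% ± 1.88 in GRflox at ZT12, and 28.1% ± 1.52 in CardioGRKO and 17.6% ± 1.11 in GRflox at ZT0. These shares depend on which exons are counted as the length of a gene. With the transcript of the longest coding sequence, the T-type share was 15.7% ± 1.72 in CardioGRKO and 9.00% ± 0.952 in GRflox at ZT12, and 14% ± 0.897 in CardioGRKO and 8.11% ± 0.577 in GRflox at ZT0. That transcript of Cacna1c is nearly all coding, with 6666 of 6669 bases. Those of Cacna1g and Cacna1h keep untranslated bases, with 7143 coding of 8383 and 7077 coding of 8230. Against merged exons, this length thus raises the share of Cacna1c. With either length the CardioGRKO libraries were above the GRflox libraries of their time without overlap, in shares built from the same genes as the ratios above.

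**Figure D3:**
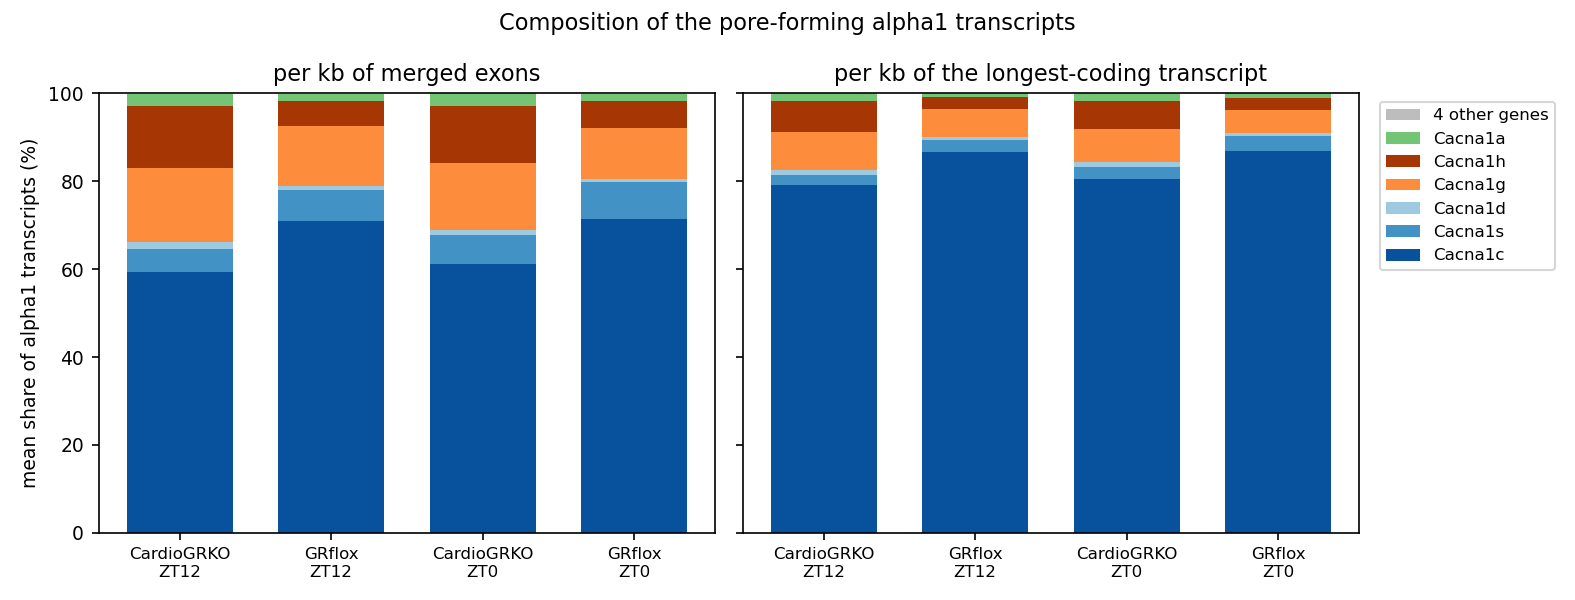
Mean share (%) of each alpha1 gene in the summed alpha1 level of a group. Shares are per kb of merged exons (left) and per kb of the transcript with the longest coding sequence (right). Bars are stacked, blue for L-type genes, orange for T-type genes and green for Cacna1a. The remaining 4 genes are too low to see. The orange segments are taller in CardioGRKO than in GRflox at both times, and the height of all orange segments depends on the length used.

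Of these genes, 1 differed between the times of day. In GRflox, Cacna1g was higher at ZT12, with 50.9 ± 5.14 CPM, than at ZT0, with 42.4 ± 1.82 CPM, a log2 fold change of 0.27 ± 0.09 (edgeR adjusted p = 0.0348). Libraries overlapped through 1 GRflox library of ZT12 at 44.1 CPM. The call was lost without replicate 2 of GRflox at ZT12, with 0.23 (edgeR adjusted p = 0.0941), and without replicate 3 of GRflox at ZT12, with 0.23 (edgeR adjusted p = 0.101). It was also lost without replicate 1, 4 or 5 of GRflox at ZT0, with 0.25 (edgeR adjusted p = 0.0834), 0.27 (edgeR adjusted p = 0.0549) and 0.25 (edgeR adjusted p = 0.0728). That is 1 of the 5 genes called higher and none lower, where 8.13% of all genes tested were called higher at ZT12 in GRflox, 9.17% lower and 17.3% in either direction. In CardioGRKO none of the 5 was called by edgeR, against 4.42% of all genes called higher, 4.75% lower and 9.17% in either direction. Cacna1g was the nearest there, with 62.0 ± 8.38 CPM at ZT12 and 54.4 ± 6.92 CPM at ZT0, a log2 fold change of 0.17 ± 0.09 (edgeR adjusted p = 0.235). For Cacna1c the time differences were 0.02 ± 0.05 in GRflox and 0.00 ± 0.05 in CardioGRKO, the narrowest among the 5 genes.

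The genotype differences at ZT12 and ZT0 were also set against each other by the interaction term. No member was called, with edgeR adjusted p from 0.918 for Cacna1h to 0.99 for Cacna1c, and 0.186% of all genes tested were called. For Cacna1h the genotype difference was larger at ZT12 by 0.22 ± 0.14 on the log2 scale, and for Cacna1g the interaction was -0.09 ± 0.12. A difference between the times of the size of these standard errors was not detectable.

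**Figure D4:**
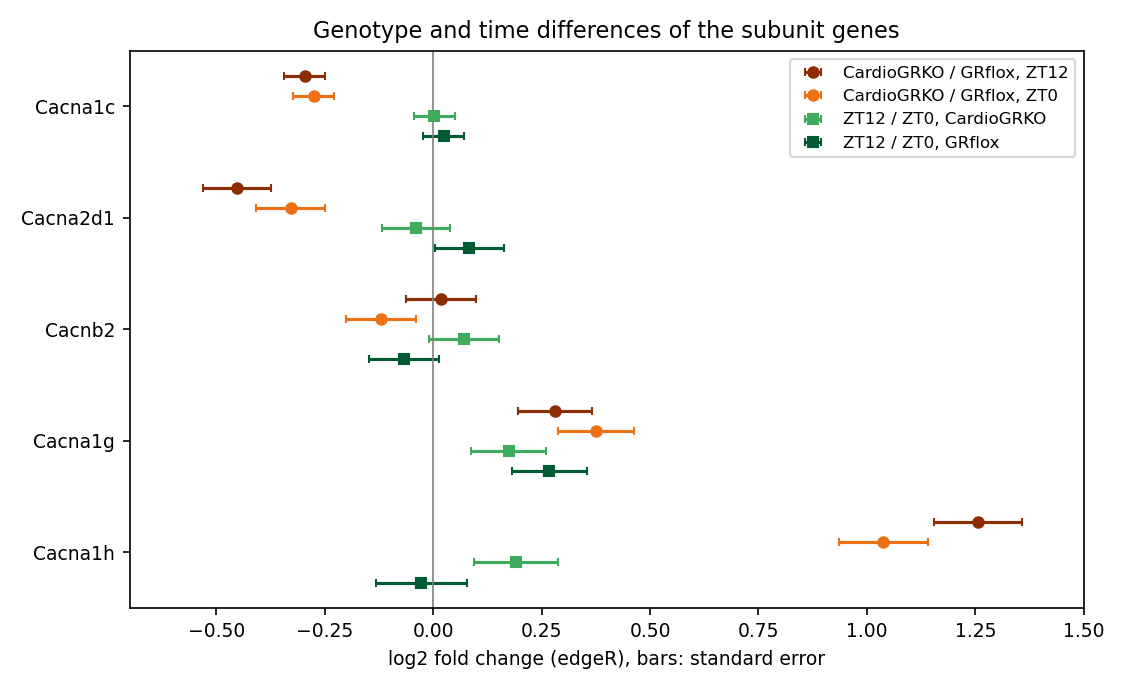
Log2 fold changes of the 5 genes with their standard errors (edgeR, 5 libraries per group): circles compare CardioGRKO with GRflox at ZT12 and at ZT0, squares compare ZT12 with ZT0 in CardioGRKO and in GRflox; a value above 0 means higher in the first-named group. The circles of Cacna1c and Cacna2d1 lie below 0 and those of Cacna1g and Cacna1h above it, while the squares lie near 0 except those of Cacna1g and the CardioGRKO square of Cacna1h.

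Of the 21 other genes for voltage-gated calcium channel subunits, 11 passed the filter. At ZT12, 3 were called higher in CardioGRKO and 2 lower, and at ZT0, 3 were called higher and 1 lower. Over all genes tested, 21.1% were called in either direction at ZT12 and 14.7% at ZT0. The median log2 fold change of the 11 was -0.21 at ZT12 and -0.03 at ZT0, beside 0.00 and -0.01 over all genes tested. The same 3 genes were higher at both times. Cacnb1, the beta subunit of the skeletal muscle channel, averaged 18.7 ± 1.30 CPM in CardioGRKO and 11.1 ± 0.949 CPM in GRflox at ZT12, and 17.7 ± 1.99 CPM in CardioGRKO and 10.4 ± 1.85 CPM in GRflox at ZT0. Its log2 fold change was 0.76 ± 0.10 at ZT12 (edgeR adjusted p = 5.01e-06) and 0.77 ± 0.10 at ZT0 (edgeR adjusted p = 9.74e-06). Relative to Cacnb2 in the same library, Cacnb1 counts averaged 14.6% ± 1.52 in CardioGRKO and 8.78% ± 0.811 in GRflox at ZT12, and 14.8% ± 2.85 in CardioGRKO and 8.19% ± 2.56 in GRflox at ZT0. Cacnb2 thus remained the most abundant beta gene per length, at 63.6% ± 2.11 of the 4 beta genes in CardioGRKO and 71.0% ± 1.39 in GRflox at ZT12.

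Cacna1a, the P/Q-type pore gene best known from neurons, averaged 10.9 ± 1.43 CPM in CardioGRKO and 6.23 ± 0.440 CPM in GRflox at ZT12, and 11.3 ± 1.22 CPM in CardioGRKO and 6.85 ± 0.941 CPM in GRflox at ZT0. Its log2 fold change was 0.80 ± 0.10 at ZT12 (edgeR adjusted p = 4.20e-06) and 0.71 ± 0.10 at ZT0 (edgeR adjusted p = 3.43e-05), and the libraries did not overlap. Cacna1d, an L-type pore gene of atrial and pacemaker cells, averaged 6.73 ± 1.38 CPM in CardioGRKO and 4.35 ± 0.612 CPM in GRflox at ZT12. At ZT0 it averaged 5.17 ± 0.914 CPM in CardioGRKO and 3.44 ± 0.387 CPM in GRflox. Its log2 fold change was 0.63 ± 0.14 at ZT12 (edgeR adjusted p = 0.00252) and 0.60 ± 0.15 at ZT0 (edgeR adjusted p = 0.00879), with overlap of libraries at both times. So 1 L-type pore gene differed in the direction of the T-type genes, at a level per length of 0.534 CPM per kb in CardioGRKO and 0.344 CPM per kb in GRflox at ZT12, far below Cacna1c.

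Cacng6, a gamma subunit gene, was lower in CardioGRKO, by a log2 fold change of -0.73 ± 0.26 at ZT12 (edgeR adjusted p = 0.0468) and -1.15 ± 0.26 at ZT0 (edgeR adjusted p = 0.00371). Its counts were low, from 2 to 57 per library. Cacna1s, the L-type pore gene of skeletal muscle, differed by -0.44 ± 0.15 at ZT12 (edgeR adjusted p = 0.0427) and, not called, by -0.41 ± 0.15 at ZT0 (edgeR adjusted p = 0.0754). Leaving out 1 library ended the ZT12 call of Cacna1s for replicates 1, 3 and 4 of CardioGRKO at ZT12, replicates 1, 2 and 5 of GRflox at ZT12 and replicate 4 of CardioGRKO at ZT0 (edgeR adjusted p from 0.0501 to 0.144). It ended the ZT12 call of Cacng6 for replicates 1 and 3 of CardioGRKO and 1, 2, 3 and 5 of GRflox at ZT12, replicate 4 of CardioGRKO and 2, 4 and 5 of GRflox at ZT0 (edgeR adjusted p from 0.0518 to 0.138). None of the 11 genes was called by edgeR between ZT12 and ZT0 in either genotype or in the interaction. Among all genes tested, 17.3% were called between times in GRflox, 9.17% in CardioGRKO and 0.186% in the interaction. Cacna1i, the other T-type pore gene, had at most 9 counts in any library and was not tested.

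The list of 30 partners of the L-type channel and of the dyad, where it faces the calcium release channel, held 28 tested genes. At ZT12, 4 were called higher in CardioGRKO and 8 lower, and at ZT0, 3 higher and 7 lower. Of all genes tested, 10.4% were called higher and 10.7% lower at ZT12, and 7.36% and 7.35% at ZT0. The median log2 fold change of the list was -0.03 at ZT12 and -0.02 at ZT0. Ryr2, the release channel that L-type calcium current opens, averaged 2083 ± 120 CPM in CardioGRKO and 3081 ± 146 CPM in GRflox at ZT12, and 2031 ± 138 CPM in CardioGRKO and 2636 ± 247 CPM in GRflox at ZT0. Its log2 fold change was -0.56 ± 0.06 at ZT12 (edgeR adjusted p = 1.48e-07) and -0.38 ± 0.06 at ZT0 (edgeR adjusted p = 6.75e-05). Trdn (triadin, which ties the release channel to calsequestrin) fell by 0.43 ± 0.06 at ZT12 (edgeR adjusted p = 7.11e-06) and by 0.34 ± 0.06 at ZT0 (edgeR adjusted p = 0.000199) on the log2 scale.

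Atp2a2, the pump that returns calcium to the reticulum, and Jph2, the protein that holds the dyad together, were lower as well. At ZT12 the log2 fold changes were -0.24 ± 0.05 (edgeR adjusted p = 0.000414) for Atp2a2 and -0.21 ± 0.05 (edgeR adjusted p = 0.0035) for Jph2. At ZT0 they were -0.16 ± 0.05 (edgeR adjusted p = 0.0189) for Atp2a2 and -0.18 ± 0.05 (edgeR adjusted p = 0.0206) for Jph2. Without replicate 1 of CardioGRKO at ZT0 the ZT0 call of Atp2a2 was lost (edgeR adjusted p = 0.075). That of Jph2 was lost without replicate 1, 2 or 5 of CardioGRKO at ZT0 or replicate 4 of GRflox at ZT0 (edgeR adjusted p from 0.0515 to 0.065). Higher at both times were Casq2 (cardiac calsequestrin), Camk2d (a kinase that phosphorylates the channel) and Akap6 (an anchor of protein kinase A), by log2 fold changes of 0.29, 0.22 and 0.24 at ZT12 and of 0.27, 0.21 and 0.25 at ZT0.

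Rrad, a small GTPase that restrains L-type current through the beta subunit, averaged 236 ± 27.6 CPM in CardioGRKO and 124 ± 30.7 CPM in GRflox at ZT12, a log2 fold change of 0.92 ± 0.22 (edgeR adjusted p = 0.00388) without overlap. At ZT0 it averaged 252 ± 87.4 CPM in CardioGRKO and 232 ± 80.8 CPM in GRflox, with a wide spread and no call. In GRflox its log2 fold change of ZT12 over ZT0 was -0.89 ± 0.22 (edgeR adjusted p = 0.00646). The interaction was not called, with a log2 value of 0.80 ± 0.31 (edgeR adjusted p = 0.649), so a difference of its genotype effect between the times is not shown.

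Between times, 2 partners were called higher and 4 lower at ZT12 in GRflox, and 1 higher and 4 lower in CardioGRKO. Of all genes tested, 8.13% were called higher and 9.17% lower in GRflox, and 4.42% and 4.75% in CardioGRKO. Ahnak, a scaffold protein that binds the beta subunit, was higher at ZT12 by a log2 fold change of 0.82 ± 0.07 in GRflox (edgeR adjusted p = 3.83e-09) and 0.67 ± 0.07 in CardioGRKO (edgeR adjusted p = 2.58e-07). Asph, whose junctin product lies beside the release channel, was lower at ZT12, with log2 fold changes of -0.28 ± 0.05 in GRflox (edgeR adjusted p = 0.00024) and -0.26 ± 0.05 in CardioGRKO (edgeR adjusted p = 0.00105). No partner was called in the interaction by edgeR.

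**Figure D5:**
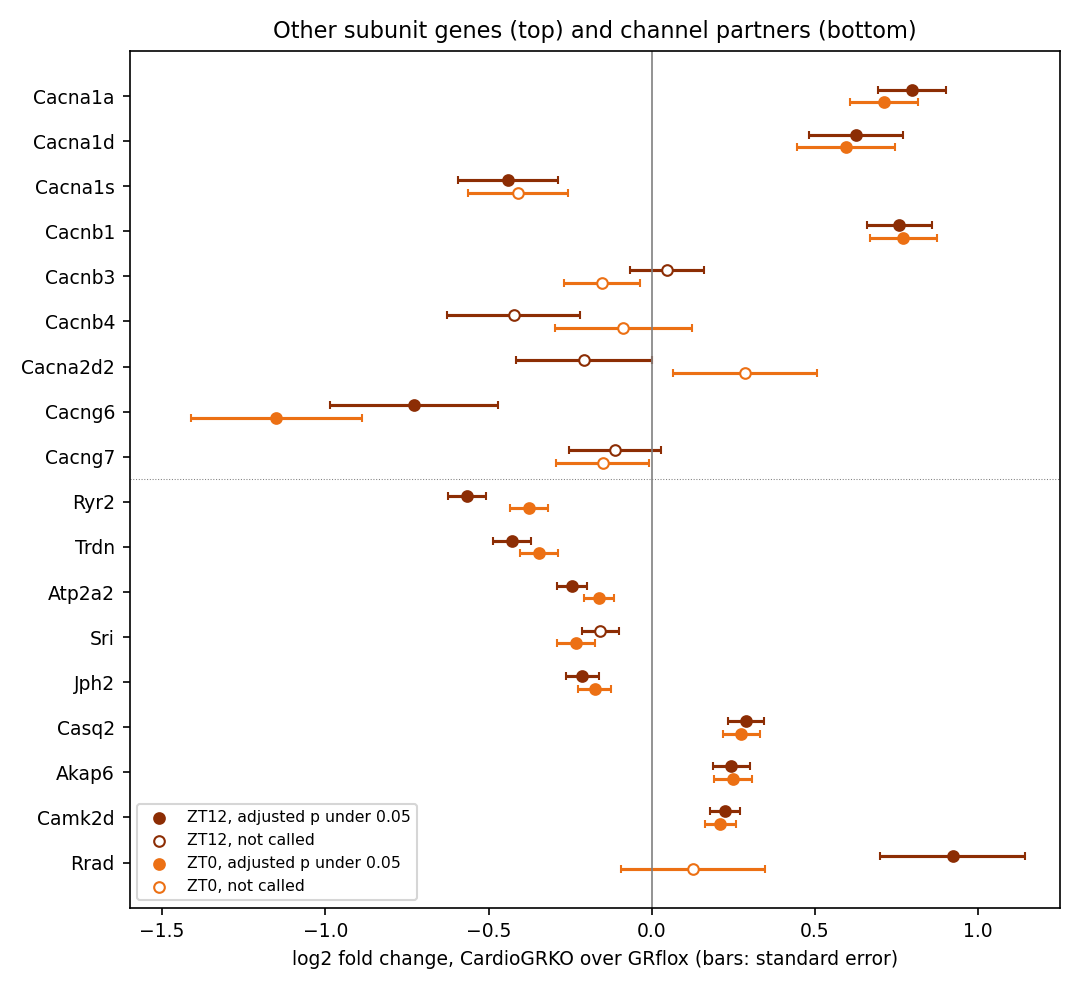
Log2 fold changes of CardioGRKO over GRflox, with standard errors. Above the dotted line are the tested other subunit genes except the low Cacna1b and Cacna2d3. Below it are the channel partners Ryr2, Trdn, Atp2a2, Sri, Jph2, Casq2, Akap6, Camk2d and Rrad. Filled points were called at an edgeR adjusted p under 0.05 and open points were not. Cacna1a, Cacna1d and Cacnb1 lie above 0 and Cacng6 below it at both times, and among partners Ryr2 lies farthest below 0.

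Of 9 tested genes for regulators of channel genes, 1 was called higher and 1 lower in CardioGRKO at ZT12, and none higher and 3 lower at ZT0. Nr3c1, the targeted gene, is the lower one at ZT12 and among those at ZT0. Over all genes tested, 21.1% were called in either direction at ZT12 and 14.7% at ZT0. The median log2 fold change of the list was 0.02 at ZT12 and -0.10 at ZT0. Gata4, a cardiac transcription factor, was higher at ZT12, by a log2 fold change of 0.45 ± 0.06 (edgeR adjusted p = 7.16e-06). At ZT0 Gata4 differed by 0.05 ± 0.06 (edgeR adjusted p = 0.65), and its interaction was not called (edgeR adjusted p = 0.0587). The clock genes Arntl and Clock were lower at ZT0, with log2 fold changes of -0.62 ± 0.12 (edgeR adjusted p = 0.000783) for Arntl and -0.23 ± 0.06 (edgeR adjusted p = 0.00776) for Clock. Neither was called at ZT12, with 0.57 ± 0.21 (edgeR adjusted p = 0.0617) for Arntl and 0.03 ± 0.06 (edgeR adjusted p = 0.802) for Clock. The mineralocorticoid receptor gene Nr3c2, which shares ligands with Nr3c1, differed by 0.16 ± 0.12 at ZT12 (edgeR adjusted p = 0.382) and 0.12 ± 0.13 at ZT0 (edgeR adjusted p = 0.588). Rest, a repressor that acts on Cacna1h in the mouse ventricle, differed by 0.01 ± 0.06 at both times (edgeR adjusted p = 0.924 at ZT12 and 0.92 at ZT0). Between ZT12 and ZT0, none was called higher and 3 lower in GRflox, and none higher and 2 lower in CardioGRKO. Arntl and Clock were among the lower ones in both genotypes. Of all genes tested, 9.17% were called lower in GRflox and 4.75% in CardioGRKO. Arntl was the 1 regulator called in the interaction, at a log2 value of 1.18 ± 0.24 (edgeR adjusted p = 0.0397). That call was lost without replicate 1, 3 or 4 of CardioGRKO or any 1 of the 5 replicates of GRflox at ZT12, and without replicate 1 of CardioGRKO or replicate 2, 4 or 5 of GRflox at ZT0 (edgeR adjusted p from 0.0552 to 0.127).

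Promoter windows of RefSeq (GRCm38.p6), 250 bases before to 50 after each start, were searched on both strands for the glucocorticoid receptor half-site AGAACA and the full palindrome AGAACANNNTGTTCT, of which the half-site is a part. The half-site was in 19% of 32851 promoters and the full site in 3 of them. For Cacna1c, 1 of its 3 windows held 2 half-sites, for Cacnb2, 1 of 2 windows held 1 half-site, and the window of Cacna2d1 held none. No window of these 3 genes held the full site, and windows of Cacna1g and Cacna1h were not analysed here. A match is a description of these letters only, and none was used in any comparison.

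For each member, the tested genes whose log2 CPM followed it most closely over the 20 libraries were named by the smallest root mean square difference after centring, among 11353 genes with a mean log2 CPM of at least 1. For Cacna1h these were Ush1c, Phldb2 and Padi2, at root mean square differences of 0.20, 0.21 and 0.24, beside a root mean square of Cacna1h itself of 0.60. Each of the 3 was higher in CardioGRKO, with log2 fold changes from 0.995 for Ush1c to 1.41 for Padi2 at ZT12. This direction follows from choosing them by likeness to Cacna1h over the same libraries. For Cacna1c they were Pcca, Atp5c1 and Zfp106, at 0.06 to 0.07 beside 0.16 for Cacna1c. For Cacna2d1 they were Decr1, Rabgap1l and Hadh, at 0.08 to 0.09 beside 0.24. The nearest to Cacna1g were Cux2, Ptprs and Tmem98, at 0.13 to 0.14 beside 0.24, and the nearest to Cacnb2 were Diexf, Setdb1 and Sdccag3, at 0.09 to 0.10 beside 0.14. The last measure is close to the size of Cacnb2 itself, which varied little over the libraries.

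Markers of cell types moved with the genotypes in part. Their counts of calls stand beside shares of all genes tested of 10.4% higher and 10.7% lower at ZT12, and 7.36% and 7.35% at ZT0. At ZT12 the summed CPM of 8 ventricular cardiomyocyte markers ran from 73355 to 86347 in CardioGRKO and from 88599 to 93678 in GRflox. At ZT0 it ran from 74324 to 79837 in CardioGRKO and from 85399 to 89094 in GRflox. Myh6 made up most of these sums. It averaged 52421 ± 3450 CPM in CardioGRKO and 61066 ± 898 CPM in GRflox at ZT12. At ZT0 Myh6 averaged 49740 ± 2422 CPM in CardioGRKO and 56062 ± 1952 CPM in GRflox. Of the 7 tested genes of this list, 1 was called higher and 4 lower at ZT12, and 2 higher and 3 lower at ZT0. Myl2 was not called at either time, and the median log2 fold change of the list was -0.16 at ZT12 and -0.07 at ZT0. Irx4 was the gene called higher at ZT12, and Irx4 and Myh7 were those at ZT0. Myh6, Tnnt2 and Tnni3 were called lower at both times, and Actn2 at ZT12. At ZT12 the log2 fold changes of these were -0.22, -0.28, -0.34 and -0.12, beside -0.30 for Cacna1c. At ZT0 those of Myh6, Tnnt2 and Tnni3 were -0.17, -0.25 and -0.28, beside -0.27 for Cacna1c. T-type channels are known from pacemaker and conduction cells, whose 7 markers summed to 51.3 to 62.3 CPM in CardioGRKO and 73.98 to 96.57 CPM in GRflox at ZT12, and to 55.0 to 69.9 CPM in CardioGRKO and 69.0 to 86.2 CPM in GRflox at ZT0. None of its 6 tested genes was called higher by edgeR, 4 were lower at ZT12 and 2 at ZT0, and the others were not called. The median log2 fold change of the list was -0.51 at ZT12 and -0.25 at ZT0, and the sums of CardioGRKO and GRflox libraries overlapped at ZT0. Isl1 had no count in either group at ZT0.

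Atrial markers, 6 genes, summed to 132.5 to 431.8 CPM in CardioGRKO and 77.7 to 264 CPM in GRflox at ZT12, and to 103 to 438 CPM in CardioGRKO and 62.1 to 194 CPM in GRflox at ZT0. The 1 called gene of the 5 tested was Nppa, higher at both times, which made up most of these sums, with 238 ± 87.8 CPM in CardioGRKO and 96.1 ± 19.1 CPM in GRflox at ZT12, and 191 ± 128 CPM in CardioGRKO and 65.3 ± 15.7 CPM in GRflox at ZT0. The median log2 fold change of the list had the other sign, -0.79 at ZT12 and -0.58 at ZT0. Myl7, Myl4 and Sln had log2 fold changes of -0.97, -0.92 and -0.79 at ZT12 and of -0.83, -0.58 and -0.77 at ZT0, with standard errors from 0.65 to 0.82 and no call. Bmp10 had no count in CardioGRKO at ZT0 or in GRflox at ZT12. Smooth muscle and pericyte markers, 8 genes, summed to 668 to 1017 CPM in CardioGRKO and 730 to 875 CPM in GRflox at ZT12, and to 875 to 1064 CPM in CardioGRKO and 735 to 877 CPM in GRflox at ZT0. Acta2 was the 1 called higher at both times, with 1 gene lower at ZT12 and 3 at ZT0. It averaged 368 ± 102 CPM in CardioGRKO and 193 ± 11.4 CPM in GRflox at ZT12, and 471 ± 62.7 CPM in CardioGRKO and 214 ± 26.8 CPM in GRflox at ZT0, a large part of these sums. The median log2 fold change of the list was again below 0, at -0.22 at ZT12 and -0.23 at ZT0. Of 6 endothelial markers, 3 were lower and none higher at each time, where 10.7% of all genes tested were lower at ZT12 and 7.35% at ZT0. No fibroblast, macrophage or Schwann cell and neuron marker was called by edgeR between genotypes, of 6, 4 and 4 tested. The part of cell composition in the differences of the channel genes was not tested.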

How the data were processed

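Per the labels' protocols, poly(A)-enriched libraries of left ventricular free wall RNA were made with a TruSeq RNA kit and sequenced in paired-end mode on a NovaSeq. The values deposited by the authors are whole-number counts of reads per gene, not normalized; the submitters' processing notes name STAR 2.5.1, featureCounts of Subread 1.5.1, DESeq2 1.38.3 and the build mm10. The labels state neither strand setting nor annotation release nor how multi-mapping reads were treated. The 24918 lines of a table all name a gene and were summed to 24059 genes by Entrez identifier. Depth ran from 5854462 to 37648421 counts, so a gene at the level of Cacna1h had from 248 to 1728 counts in a CardioGRKO library.

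Groups were taken from the labels. Counts were tested with the edgeR 4.0.16 quasi-likelihood F-test in R 4.3.3: filterByExpr (minimum count 10, minimum total 15) left 14007 genes, TMM factors ran from 0.961 to 1.04, 1 model of group means covered all 20 libraries, and p-values were adjusted by Benjamini-Hochberg within each contrast, with a threshold of 0.05. The standard error is the size of the log2 fold change over the square root of F. The common biological coefficient of variation was 8.78%. Log2 CPM used a prior count of 2. No 2 replicates agreed within sampling noise, with a chi-square of 4.22 to 20.96 per gene over 40 pairs. The model code was tested on simulated data. Lengths and coding stretches came from GENCODE M21. Python 3.11.15 and matplotlib 3.10.9 were used for the figures.

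The members and lists (other subunits, partners, regulators and cell type markers) were chosen with earlier results of these data known. Named genes were the members, Nr3c1, any other subunit gene, of partners and regulators up to 8 with the smallest p per comparison and Ryr2, and the 3 genes nearest to each member; single markers and genes in counts of 5 or fewer were named after their values were seen. Alternatives were RLE scaling, DESeq2 1.42.0, no low-count filter, fits of the compared groups alone, a replicate block, thinning to the smallest library, a prior count of 0.5 for the ratios, and leaving out each library. Adgre1 was not used here, and the clock gene Bmal1 was read under its earlier symbol Arntl.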

Additional observations from a re-analysis of the deposited data

How the results depend on the processing

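The calls of Cacna1c, Cacna2d1 and Cacna1h between genotypes, and of Cacna1g at ZT0, held in all 26 alternatives, which were 6 other settings and 20 fits that each left out 1 library. Cacna1g at ZT12 was called in 24 of 26 and between times in GRflox in 21 of 26, lost without the libraries named above. Only 10 of the 20 libraries left out belong to the groups of a given comparison. Among these, 2 ended the Cacna1g call between genotypes at ZT12 and 5 ended its call between times. The log2 fold change of Cacna1g without 1 library ran from 0.20 to 0.33 between genotypes at ZT12 and from 0.23 to 0.31 between times. Cacnb2 was called in none. The ZT12 call of Cacna1s held in 17 of 26 and that of Cacng6 in 13. Besides single libraries, Cacna1s lost it in the compared groups alone and with thinning (edgeR adjusted p of 0.079 to 0.361). Cacng6 lost it without the low-count filter, in the compared groups alone and with the replicate block (edgeR adjusted p of 0.056 to 0.0725). With thinning, calls also ended for Jph2 at ZT0 (edgeR adjusted p = 0.0638) and the Arntl interaction (edgeR adjusted p = 0.454). Same-numbered libraries deviated together with r from -0.27 to 0.23, mean 0.027, and over 0.1 in 8 of 30 pairs. Other pairs averaged -0.007, and 7 of 20 libraries correlated best with their own number. These values do not settle whether replicate numbers pair the libraries. With the replicate block no member's call changed; the genes called numbered 3111 between genotypes at ZT12 and 2194 at ZT0, 2513 between times in GRflox and 1359 in CardioGRKO, and 38 in the interaction, against 2952, 2060, 2423, 1284 and 26 without it. Thinned to the smallest library, they numbered 1924, 1332, 1479, 802 and 17. DESeq2 called 69 genes in the interaction, and leaving out 1 library gave 16 to 33, with 16 without replicate 1 of CardioGRKO at ZT12 and 17 each without replicate 4 of GRflox at ZT12 and replicates 2 and 4 of GRflox at ZT0; the cause was not tested. At an unadjusted p under 0.05, 839 genes passed in the interaction. A fit of the compared groups alone exists for every comparison but the interaction, which needs all 4. The T-type to Cacna1c ratios were recomputed with a prior count of 0.5 and without each of the 10 libraries compared. Without 1 library, the log2 difference for Cacna1h ran from 1.47 to 1.62 at ZT12 and from 1.23 to 1.38 at ZT0. Each ratio difference moved by less than the spread between libraries. Leaving out 1 of 5 libraries cannot move a group mean by that much, so this limit could not have been passed. The length used for alpha1 shares was an alternative added after seeing the data.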
